A study of Mus musculus with 6 samples.

Results

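Cyp2c55, Cyp2c65, Cyp2c66, Cyp2c68 and Cyp2c29 are cytochrome P450 genes of the Cyp2c cluster on mouse chromosome 19. They were taken by symbol from 52550 Ensembl gene identifiers, and 12 other Cyp2c genes of the same files served for comparison. The set was selected on the atorvastatin-against-control values of these same libraries, in which Cyp2c55 was already known to be higher. The values of the 5 genes in that contrast are therefore a description, and no test of them is used as evidence. The question was whether the genes next to Cyp2c55 differed in the same way.

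RNA was sequenced from colon epithelial cells of male Apc Min/+ mice aged 5 to 6 weeks. Apc Min is a truncating allele of the tumour suppressor Apc under which intestinal adenomas form, and mice of both groups carried it. One group of 3 libraries came from mice given atorvastatin, an inhibitor of HMG-CoA reductase in cholesterol synthesis, at 20 mg/kg by gavage on alternate days. The control group of 3 libraries came from mice given the vehicle, 2% Tween 80, on the same schedule. The labels do not say in what atorvastatin was given. The labels give neither the number of doses nor whether adenoma tissue was included, and wild-type mice were not analysed here. They also do not say that each library came from a separate animal, so p-values measure the spread between these libraries, which may be technical.

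CYP2C enzymes are haem monooxygenases of the endoplasmic reticulum. They receive electrons from cytochrome P450 reductase and oxidise drugs and fatty acids, among them arachidonic acid, from which they form epoxides and hydroxylated products. In liver, several Cyp2c genes are controlled by the nuclear receptors PXR, CAR and HNF4A. Mouse CYP2C55 is known from colon and caecum and oxidises arachidonic acid. CYP2C65 and CYP2C66 are intestinal enzymes of the same reaction class, and CYP2C29 is a major enzyme of mouse liver.

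Of the 17 Cyp2c genes, 16 lie within 1.21 Mb of chromosome 19, and each has 9 exons in its longest coding transcript, or for pseudogenes its longest transcript. By GENCODE M21, on the mm10 build, Cyp2c55 (ENSMUSG00000025002) spans chr19:39007019-39042693 on the plus strand. It is followed on the same strand by Cyp2c65 (ENSMUSG00000067231) at chr19:39061015-39093944, Cyp2c66 (ENSMUSG00000067229) at chr19:39113898-39187072 and Cyp2c29 (ENSMUSG00000003053) at chr19:39269405-39330713. Cyp2c68 (ENSMUSG00000074882) lies at chr19:39688834-39741054 on the minus strand. The pseudogene Cyp2c52-ps precedes Cyp2c55, and Hells, which is not a P450 gene, precedes both.

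The 250 bases before the RefSeq start of each of the 4 expressed members are given because they show which members are near copies of each other and which are not. Sequences are from RefSeq, build GRCm38.p6, and run 5′ to 3′ on the gene's own strand. The windows are chr19:39006769-39007018 (plus strand) for Cyp2c55, chr19:39060756-39061005 (plus) for Cyp2c65, chr19:39113648-39113897 (plus) for Cyp2c66 and chr19:39741102-39741351 (minus) for Cyp2c68. Capitals mark CAAAGTCC, a core of the element that HNF4 receptors bind, searched over the whole window on both strands, and TATAA, searched on the gene's strand in the last 50 bases.
Cyp2c55: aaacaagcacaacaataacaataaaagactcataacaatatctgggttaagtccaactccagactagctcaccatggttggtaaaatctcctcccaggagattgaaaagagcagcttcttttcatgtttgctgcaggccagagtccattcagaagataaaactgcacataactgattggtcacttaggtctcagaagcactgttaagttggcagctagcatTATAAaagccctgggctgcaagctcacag
Cyp2c65: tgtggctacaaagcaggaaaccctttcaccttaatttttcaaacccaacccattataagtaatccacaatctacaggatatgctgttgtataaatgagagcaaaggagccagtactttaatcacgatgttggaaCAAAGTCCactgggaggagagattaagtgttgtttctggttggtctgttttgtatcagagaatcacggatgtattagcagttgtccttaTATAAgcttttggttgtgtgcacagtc
Cyp2c66: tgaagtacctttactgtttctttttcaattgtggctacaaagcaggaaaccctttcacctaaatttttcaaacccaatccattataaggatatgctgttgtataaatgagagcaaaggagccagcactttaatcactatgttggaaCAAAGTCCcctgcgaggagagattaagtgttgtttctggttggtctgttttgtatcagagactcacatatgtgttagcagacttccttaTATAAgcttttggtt
Cyp2c68: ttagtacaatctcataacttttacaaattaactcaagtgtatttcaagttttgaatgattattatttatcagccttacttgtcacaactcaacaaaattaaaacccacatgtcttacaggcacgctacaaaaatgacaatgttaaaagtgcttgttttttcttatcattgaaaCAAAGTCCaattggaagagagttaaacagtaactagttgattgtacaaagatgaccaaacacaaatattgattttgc

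The Cyp2c65 and Cyp2c66 windows were 94.1% identical over their 221 aligned bases. Cyp2c55 shared 71.6% of aligned bases with Cyp2c65, 73.1% with Cyp2c66 and 71.6% with Cyp2c68. CAAAGTCC stood 116 to 109 bases before the start in Cyp2c65, 104 to 97 before it in Cyp2c66 and 77 to 70 before it in Cyp2c68. It was not among the letters of the Cyp2c55 or Cyp2c29 window, and 1.2% of 32851 RefSeq windows of this length held it. Windows of Cyp2c67, Cyp2c40, Cyp2c69 and Cyp2c70 held CAAAGTCC too, so it was not particular to the printed members. TATAA stood 29 to 25 bases before the start in Cyp2c55, 27 to 23 in Cyp2c65 and 15 to 11 in Cyp2c66. Of all windows, 4.93% held it in their last 50 bases. All positions are counted from the RefSeq start. For Cyp2c65 and Cyp2c68 this start lies upstream of the GENCODE start given above, so distances depend on the annotation. The bases just before the GENCODE start of Cyp2c68 lie outside its window and were not searched. The hexamers AGGTCA and AGTTCA are bound in pairs by nuclear receptors such as PXR and CAR. Neither occurred on either strand of the 4 printed windows. The Cyp2c29 window, chr19:39286835-39287084 (plus strand), held AGGTCA 154 to 149 bases before its RefSeq start. That start lies inside the GENCODE span given above for Cyp2c29, not at its beginning. Either hexamer occurred in 24.2% of all windows. Nothing is read from an absence in 4 windows. These matches describe letters in a short window and say nothing of whether a factor binds.

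Cyp2c55 was the most abundant P450 transcript of both groups and stood higher in the atorvastatin libraries. Its level was 434, 551 and 589.6 FPKM (fragments scaled to gene length and to the library's mapped total) in atorvastatin libraries, against 212, 249.96 and 189.6 FPKM in control libraries. Each atorvastatin library was above each control library. The means were 525 ± 81 FPKM under atorvastatin and 217 ± 30.5 FPKM in control (SD, n = 3 each), a ratio of 2.42 and a difference of 1.27 ± 0.14 (SE) on the log2(FPKM + 1) scale. The coefficient of variation was 15.4% in the atorvastatin group and 14.1% in the control group. Among all genes of a library, Cyp2c55 ranked between 47 and 68 under atorvastatin and between 120 and 163 in control.

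Cyp2c65 starts 18.3 kb past the end of Cyp2c55 on the same strand and was the P450 gene with the second highest mean in both groups. Its level was 82.7, 85.1 and 100.1 FPKM in atorvastatin libraries, against 94.9, 125 and 84.4 FPKM in control libraries. The highest value was in control and the lowest under atorvastatin, and the groups overlapped. The means were 89.3 ± 9.43 FPKM under atorvastatin and 101 ± 20.9 FPKM in control (SD, n = 3 each), a log2 difference of -0.17 ± 0.15 (SE).

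Cyp2c68, on the opposite strand with its nearer edge 646 kb from Cyp2c55, was steady. It stood at 46.6, 45.7 and 46.5 FPKM in atorvastatin libraries, against 49.6, 51.5 and 43.9 FPKM in control libraries. The ranges overlapped, and the log2 difference was -0.06 ± 0.07 (SE). Its coefficient of variation was 1.08% under atorvastatin and 8.19% in control, the smallest of the 4 expressed members in each group.

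Cyp2c66, 19.95 kb past the end of Cyp2c65, was near the detection filter of 1 FPKM. It had 1.77, 1.74 and 2.29 FPKM in atorvastatin libraries, against 1.61, 2.92 and 1.57 FPKM in control libraries. The groups overlapped, and the log2 difference was -0.02 ± 0.17 (SE). Cyp2c66 was thus listed far below Cyp2c65, its near copy: the ratio of Cyp2c65 to Cyp2c66 was 46.7, 49 and 43.6 in atorvastatin libraries, against 58.9, 42.7 and 53.9 in control libraries.

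Cyp2c29 was listed at 0 in all 6 libraries and so did not pass the filter. It shared this with 6 of the other Cyp2c genes: Cyp2c37, Cyp2c38, Cyp2c39, Cyp2c50, Cyp2c54 and the pseudogene Cyp2c53-ps, whose span Cyp2c29 overlaps. Values as low as 0.0135 FPKM were listed, for Cyp2c70 in control replicate 1. The depth of the libraries and the handling of reads that match several genes are unknown, so no upper limit is given for a listed 0.

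**Figure D1:**
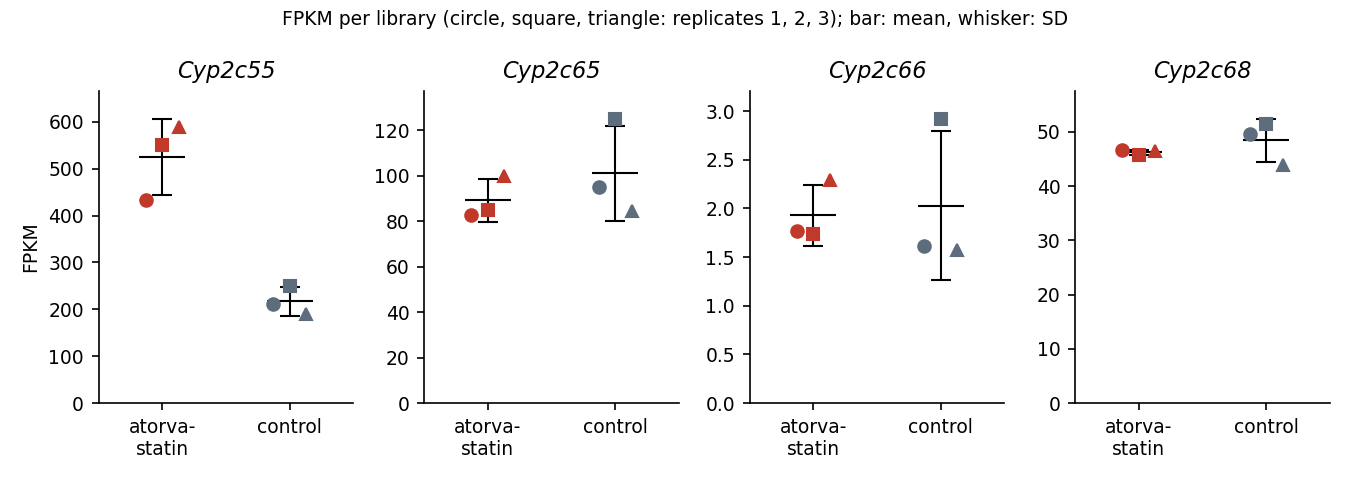
Level of each expressed Cyp2c member in FPKM (linear axis from 0, one panel per gene), with atorvastatin libraries on the left and control libraries on the right; symbols are the 3 libraries, bars the mean and SD. Cyp2c55 libraries lie at 434 to 589.6 FPKM under atorvastatin and at 189.6 to 249.96 FPKM in control, while the groups of the other members overlap.

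Over the 11644 genes that passed the filter, limma called 47 (0.404%), with 18 higher under atorvastatin (0.155%) and 29 lower (0.249%), and the groups did not overlap in 18.1%. These counts rest on single libraries: they ranged from 2 to 25 higher and from 0 to 52 lower with 1 library left out, with 2 higher and 0 lower without control replicate 1 and 52 lower without atorvastatin replicate 2. Of the 5 members, 4 were tested, and Cyp2c55 alone was among the called genes and had groups that did not overlap. Since the contrast chose the members, nothing is read from that count. Across all tested genes the median log2 difference was 0.02, 57.3% of differences were positive and 12% (1399 genes) had an unadjusted p under 0.05. These shares, with the 18.1% that did not overlap, are the background for the counts over gene lists. The log2 difference of Cyp2c55 stayed between 1.17 and 1.40 under 15 alternative treatments of the data and that of Cyp2c65 between -0.29 and -0.01. Cyp2c68 lay between -0.13 and -0.01, whereas Cyp2c66 changed sign with the library left out, between -0.13 and 0.17.

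The order of the expressed members was the same in all 6 libraries, with Cyp2c55 first, then Cyp2c65, Cyp2c68 and Cyp2c66. No library's value of one member overlapped the range of its neighbour in that order. Within the control group, replicate 2 was the highest and replicate 3 the lowest library for each of the 4 expressed members. Cyp2c66 differed most between control libraries, at 0.40 above its group mean in replicate 2 and 0.21 below it in replicate 3 on the log2 scale. Under atorvastatin, replicate 3 was the highest library for Cyp2c55, Cyp2c65 and Cyp2c66, and Cyp2c68 stayed within 0.02 of its group mean in all 3 libraries.

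Ratios between members within a library do not contain the library's total. The ratio of Cyp2c55 to Cyp2c65 was 5.25, 6.47 and 5.89 in atorvastatin libraries, against 2.23, 2.00 and 2.25 in control libraries. That of Cyp2c55 to Cyp2c68 was 9.32, 12.1 and 12.7 under atorvastatin, against 4.27, 4.85 and 4.32 in control. Both ratios were higher in each atorvastatin library than in any control library. The ratio of Cyp2c65 to Cyp2c68 overlapped, at 1.93 ± 0.197 under atorvastatin and 2.09 ± 0.29 in control (SD, n = 3 each). Such ratios show unequal differences and cannot show that one gene kept its level.

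Cyp2c55 made up 76.4%, 80.2% and 79.5% of the summed FPKM of all 17 Cyp2c genes in atorvastatin libraries, against 58.6%, 57.9% and 58.6% in control libraries. The mean share was 20.3 percentage points higher under atorvastatin. The share of Cyp2c65 was 13.5 ± 1.08% under atorvastatin and 27.1 ± 1.57% in control, and that of Cyp2c68 was 7.04 ± 1.02% under atorvastatin and 13.1 ± 0.99% in control (SD, n = 3 each). Shares add up to a whole, so a larger part for Cyp2c55 lowers the others. The summed level without Cyp2c55 was 134, 136 and 152 FPKM under atorvastatin, against 149.6, 182 and 134 FPKM in control, and these ranges overlapped.

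**Figure D2:**
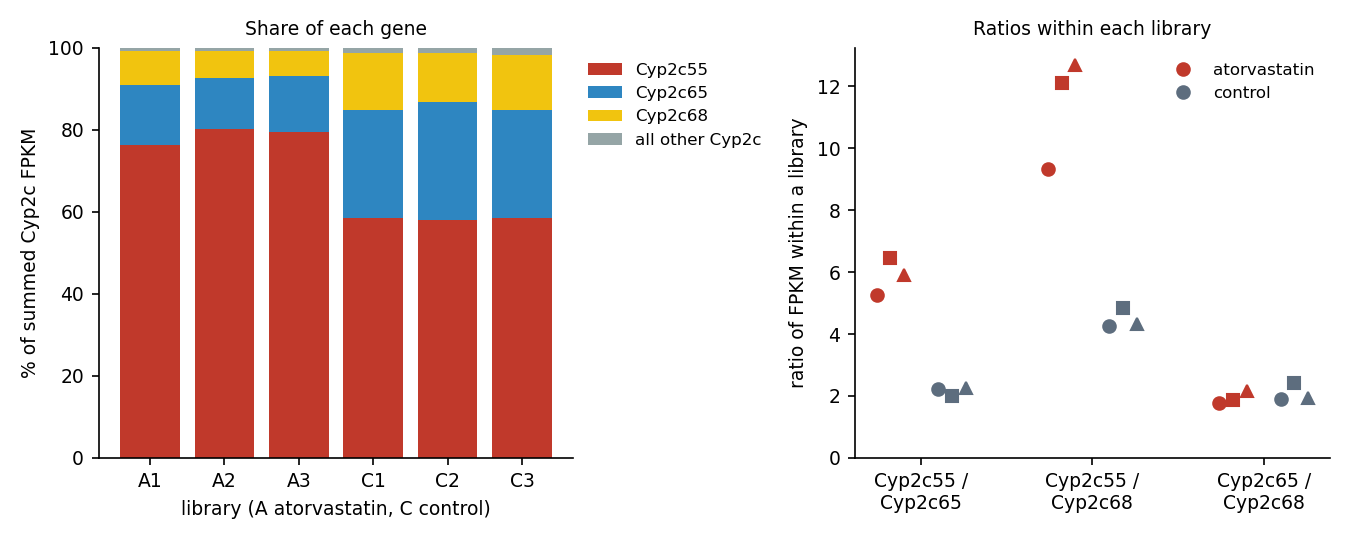
Share of each Cyp2c gene in the summed Cyp2c FPKM of a library (stacked bars, percent), with atorvastatin libraries left of control libraries, beside the ratios of Cyp2c55 to Cyp2c65, Cyp2c55 to Cyp2c68 and Cyp2c65 to Cyp2c68 in each library. Cyp2c55 takes 76.4% to 80.2% under atorvastatin and 57.9% to 58.6% in control, and the first 2 ratios are higher in each atorvastatin library.

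The members differ in how well sequencing can tell them apart. Cyp2c55 shared 10 of the 1946 50-base windows of its transcript (0.514%) with a transcript of any other gene of the annotation, and the pseudogene Cyp2c52-ps held all 10; it shared no 100-base window. Cyp2c65 shared 20.6% of its 50-base windows, nearly all with Cyp2c66, and the transcripts of this pair were 96.5% identical. Cyp2c66 shared 24% of its windows, all with Cyp2c65. Cyp2c68 shared 43.3%, most with Cyp2c40, to which its transcript was 98% identical. By contrast, Cyp2c55 was 76.6% identical to Cyp2c65, 78.2% to Cyp2c66 and 76.6% to Cyp2c68. How reads that match several genes were assigned, and the read length, are not given in the sources used here, so the separate levels of Cyp2c65 and Cyp2c66, and those of Cyp2c68 and its near copies, are uncertain.

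**Figure D3:**
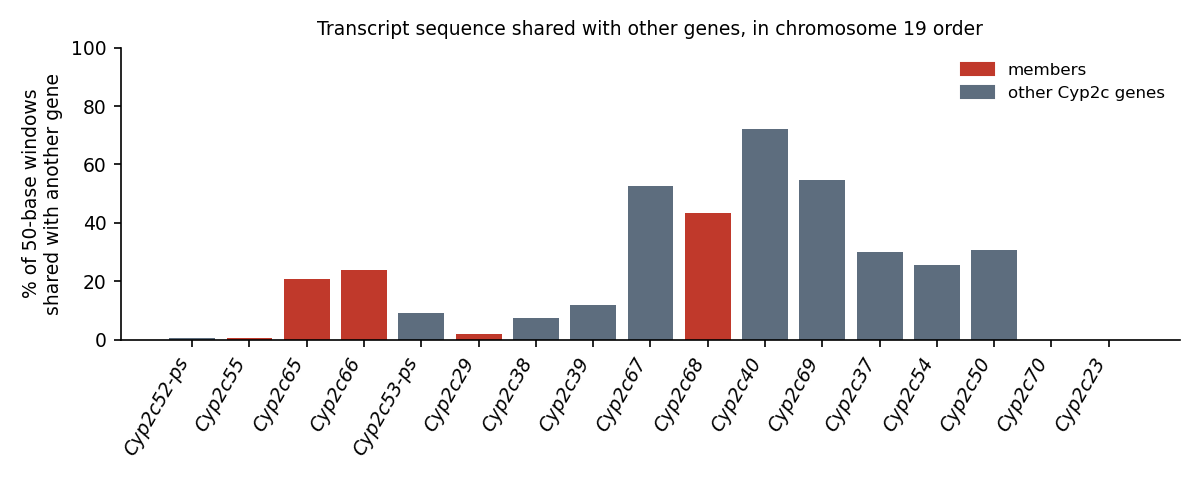
Share of each Cyp2c transcript's 50-base windows that also occur in a transcript of another gene (percent, one bar per gene). Cyp2c55 stands at 0.514%, against 20.6% for Cyp2c65, 24% for Cyp2c66 and 43.3% for Cyp2c68.

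Among the other Cyp2c genes, Cyp2c69 alone had a mean of at least 1 FPKM. It stood at 1.52, 2.3 and 2.11 FPKM in atorvastatin libraries, against 2.17, 1.8 and 2.6 FPKM in control libraries, and was not called (log2 difference -0.10 ± 0.13 SE, limma adjusted p = 0.828). Cyp2c40 was at 0.685, 0.695 and 0.659 FPKM under atorvastatin, against 0.807, 0 and 0.808 FPKM in control, so a single control library was listed at 0. Cyp2c67, Cyp2c23, Cyp2c52-ps and Cyp2c70 each stayed below 0.43 FPKM in every library. Cyp2c70, a bile acid hydroxylase of mouse liver, was at 0.0822, 0.0607 and 0.0673 FPKM under atorvastatin, against 0.0135, 0 and 0 FPKM in control. That is too low for the test, and no fold is given.

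Genes on both sides of the cluster were compared as well. Of 39 genes within the cluster span or 1 Mb on either side, other than Cyp2c genes, 17 were tested by limma, none was called, and 3 had an unadjusted p under 0.05, against 12% of all genes. Their log2 differences ran from -0.31 for Ffar4, a fatty acid receptor, to 0.34 for Hells, with 9 of 17 positive, against 57.3% of all genes, and a median of 0.03. Groups did not overlap for 4 of the 17, against 18.1% over all genes. These were Hells, which was higher, and Slc35g1, Pdlim1 and Blnk, which were lower. Hells, a chromatin remodelling helicase, ends 36 kb before Cyp2c55. It stood at 4.42, 4.83 and 4.71 FPKM in atorvastatin libraries, against 3.42, 3.56 and 3.42 FPKM in control libraries. The groups did not overlap, but the difference of 0.34 ± 0.06 (SE) did not pass (limma adjusted p = 0.0689). Further out on that side, Tbc1d12 and Noc3l differed by 0.04 and 0.03 on the log2 scale. On the far side, Pdlim1, a cytoskeletal adaptor, had 43.8, 46.5 and 42.2 FPKM under atorvastatin, against 51.6, 46.9 and 52.3 FPKM in control, and was not called (log2 difference -0.18 ± 0.06 SE, limma adjusted p = 0.325). Aldh18a1, a proline synthesis enzyme, and the pseudogene Gm15801 differed by 0.21 and -0.15, with overlapping groups.

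**Figure D4:**
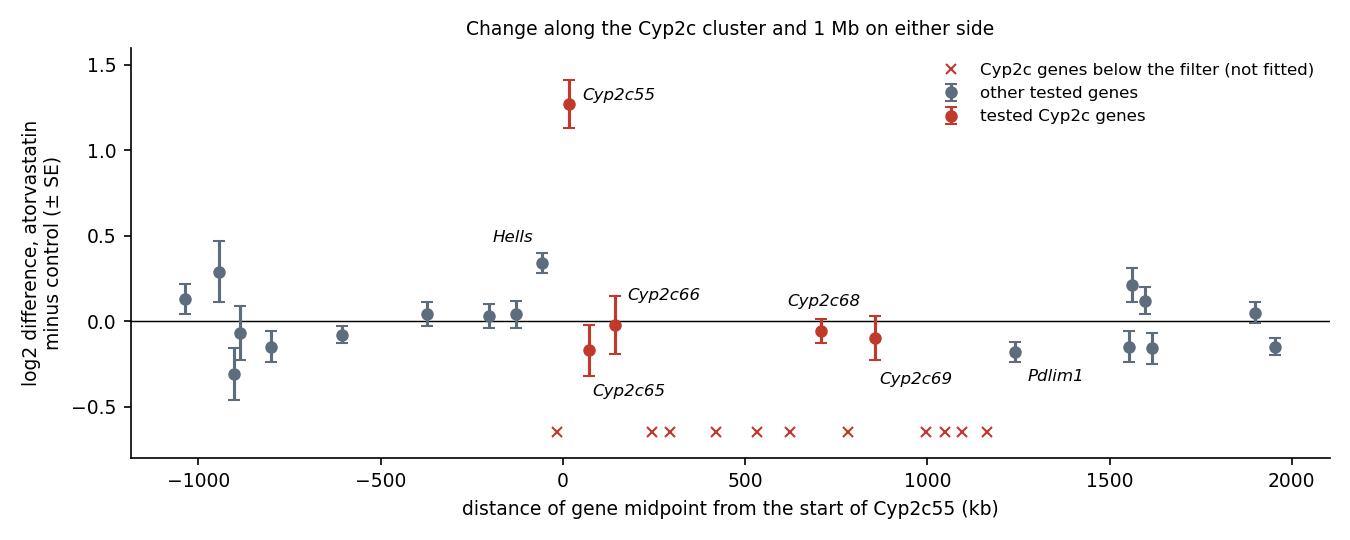
Log2 difference (atorvastatin minus control, log2(FPKM + 1) scale, bars are SE) of the tested genes of the Cyp2c cluster and its flanks, against the distance in kb of the gene's midpoint from the start of Cyp2c55; crosses mark Cyp2c genes below the filter. Cyp2c55 stands at 1.27, Hells beside it at 0.34, and the other tested genes between -0.31 and 0.29.

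Of the receptors known to control Cyp2c genes in liver, PXR and HNF4A were tested and not called, and CAR was below the filter. Only the RNA of these receptors was measured, not their activity. Of 27 tested receptors and factors, limma called 0 in either direction, 3 had an unadjusted p under 0.05, 11 were positive, and the median was -0.03, against 12% under that p and 57.3% positive over all genes. Groups did not overlap for 4 of the 27 (Rxra, Nr1h3, Hnf4a and Cebpb), each lower under atorvastatin, against 18.1% over all genes. Nr1i2, which encodes PXR, stood at 38.4, 37.4 and 34.1 FPKM in atorvastatin libraries, against 37, 41.3 and 34.7 FPKM in control libraries (log2 difference -0.04 ± 0.08 SE, limma adjusted p = 0.903). Nr1i3, which encodes CAR, was below 1 FPKM in all 6 libraries, at 0.418, 0.76 and 0.884 FPKM under atorvastatin, against 0.915, 0.656 and 0.651 FPKM in control. Hnf4a had 137, 149 and 140.2 FPKM under atorvastatin, against 155, 151 and 158 FPKM in control. Its groups did not overlap, yet the difference of -0.12 ± 0.05 (SE) was not called (limma adjusted p = 0.445). Cdx1, an intestinal homeobox factor, and Vdr, the vitamin D receptor, differed by 0.02 and 0.05. The smallest adjusted p of the list was 0.127, for Cebpb (1.21, 1.21 and 1.25 FPKM under atorvastatin, against 2.07, 1.94 and 1.62 FPKM in control).

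Transcripts of the proteins that P450 enzymes work with stood as follows. All 17 genes of electron transfer and haem supply were tested, limma called 0, 2 had an unadjusted p under 0.05, 12 were positive, and the median was 0.08, beside the same 12% and 57.3% over all genes. Por, the reductase that feeds all microsomal P450 enzymes, was at 21.2, 21.9 and 21.2 FPKM under atorvastatin, against 22.4, 20.5 and 21.2 FPKM in control (log2 difference 0.01 ± 0.05 SE, limma adjusted p = 0.974). Cyb5b, an outer mitochondrial cytochrome b5, had 92.8 ± 4.31 FPKM under atorvastatin and 84.7 ± 5.95 FPKM in control (SD, n = 3 each). Its groups did not overlap, and its adjusted p was 0.521 (limma). Pgrmc1, a haem-binding membrane protein, differed by 0.02. Groups also did not overlap for Cyb5r1, Cpox, Fech and Ppox, so that 5 of 17 genes had no overlap, against 18.1% over all genes. Cpox had the smallest adjusted p of this list, 0.202.

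Of 32 genes that release or oxygenate arachidonic acid, 15 were tested, limma called 0, 1 had an unadjusted p under 0.05, 6 were positive, and the median was -0.02, beside 12% and 57.3% over all genes. Groups overlapped for all 15, where 18.1% of all genes had no overlap. Hpgd, which inactivates prostaglandins, was at 103 ± 5.63 FPKM under atorvastatin and 106 ± 12.9 FPKM in control (SD, n = 3 each). Ptges3, a co-chaperone also described as a prostaglandin E synthase, differed by -0.04. Cyp4f14, a fatty acid omega-hydroxylase, had 27.2, 28.2 and 25.9 FPKM under atorvastatin, against 39.2, 36.7 and 28.2 FPKM in control, a difference of -0.33 ± 0.12 (SE, limma adjusted p = 0.331). Without control replicate 3 its difference was -0.47 and its limma adjusted p was 0.0481, the only one of the 15 alternatives that called it. That library was the control nearest the atorvastatin values, so leaving it out had to widen the difference. Nothing is read from this call.

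Of 28 drug-metabolising P450 genes outside the Cyp2c family, 9 were tested, limma called 0, 1 had an unadjusted p under 0.05, 2 were positive, and the median was -0.12, where all genes had 12% and 57.3%. Groups did not overlap for 2 of the 9, Cyp2d26 and Cyp2w1, each lower under atorvastatin, against 18.1% over all genes. Cyp2d34 had 59.7 ± 10.3 FPKM under atorvastatin and 57.3 ± 2.83 FPKM in control, and Cyp3a13 had 34.8 ± 2.01 FPKM under atorvastatin and 38.1 ± 5.57 FPKM in control (SD, n = 3 each). Cyp2d26 was at 11, 10.6 and 11.4 FPKM under atorvastatin, against 15.9, 17.2 and 12.4 FPKM in control, and did not pass (log2 difference -0.42 ± 0.11 SE, limma adjusted p = 0.198). Without control replicate 3 its difference was -0.55 and its adjusted p was 0.0331. Cyp3a11 and Cyp2b10, the usual liver targets of PXR and CAR, were at most 0.00782 and 0.0448 FPKM under atorvastatin and at most 0 and 0.0773 FPKM in control.

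Of the 122 P450 genes in the files, 28 were tested, with a median log2 difference of -0.06. Among them 11 were positive (57.3% over all genes), 6 had an unadjusted p under 0.05 (12%) and 5 had groups that did not overlap (18.1%), Cyp2c55 included. The count of called genes was 1 of 28, against 0.404% over all genes, and that gene was Cyp2c55, so nothing is read from it. The other tested P450 genes ran from -0.42 for Cyp2d26 to 0.31 for Cyp39a1, an oxysterol hydroxylase. Cyp2c55 supplied 52.4 ± 2.91% of the summed P450 FPKM under atorvastatin and 30.3 ± 1.13% in control (SD, n = 3 each).

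The genes whose pattern over the 6 libraries was most like that of Cyp2c55, by Pearson r of log2(FPKM + 1) among 10417 tested genes, leaving out members and genes with provisional names (predicted Gm genes, Riken clones and names made of a sequence accession), were Wdr34 (0.995), Elp4 (0.992), Hells (0.990), Maml3 (0.989) and Exosc2 (0.985). They encode a dynein chain, an Elongator subunit, the helicase named above, a Notch coactivator and an RNA exosome subunit. Their log2 differences were 0.08, 0.14, 0.34, 0.21 and 0.45, and limma called 0 of the 5. With group means removed, the closest were Clec2h (0.998), Taf1d (0.997), Tmtc4 (0.994), Stard5 (0.993) and Chp1 (0.992). For these the groups overlapped, with differences from -0.05 to 0.12. Each r rests on 6 values, fewer of them free once group means are removed. Each r was picked among the highest of many and is a description. Wdr34 lay near the filter of 1 FPKM, at 1.11, 1.15 and 1.16 FPKM under atorvastatin, against 1.03, 1.06 and 1.01 FPKM in control.

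Colon epithelium markers were abundant in every library. The 10 general epithelial genes, all tested and 2 of them positive, summed to 6393 to 6605 FPKM under atorvastatin and 6700.1 to 6908 FPKM in control, with Krt8 and Krt19 highest. These sums did not overlap. The summed levels overlapped between groups for 7 lists. Surface colonocyte genes, led by Car1 and Guca2a, summed to 4944 to 6361 FPKM under atorvastatin and 5018 to 6147 FPKM in control. All 14 were tested and 7 were positive. Goblet cell genes summed to 2565 to 3135 FPKM under atorvastatin and 2549 to 2612 FPKM in control, and crypt base genes to 70.8 to 75.4 FPKM under atorvastatin and 71.4 to 78.2 FPKM in control. Of the tested genes, 5 of 8 goblet and 7 of 10 crypt base genes were positive. Posterior Hox genes summed to 133 to 146 FPKM under atorvastatin and 119 to 147 FPKM in control, and small intestine genes, nearly all from Fabp2, to 217 to 247 FPKM under atorvastatin and 187 to 249 FPKM in control. Positive differences were seen for 4 of 6 tested posterior Hox genes and 2 of 5 tested small intestine genes. T and NK cell genes, of which 9 of 14 were tested and 0 positive, summed to 15.9 to 22.4 FPKM under atorvastatin and 21.6 to 39.8 FPKM in control. No stromal gene of 11 passed the filter, and their sum was 1.04 to 1.92 FPKM under atorvastatin and 1.36 to 1.51 FPKM in control. Enteroendocrine genes summed to 133 to 159.8 FPKM under atorvastatin and 100.4 to 111 FPKM in control, with 7 of 9 genes tested, all 7 positive and Gcg called higher (limma adjusted p = 0.0402). B and plasma cell genes summed to 2.58 to 3.35 FPKM under atorvastatin and 5.13 to 11.5 FPKM in control, with 2 of 8 tested and 0 positive. Macrophage and dendritic cell genes, 2 of 8 tested and 0 positive, summed to 3.57 to 4.48 FPKM under atorvastatin and 4.77 to 10.1 FPKM in control. Mast cell genes, 3 of 6 tested and 0 positive, summed to 8.34 to 10.2 FPKM under atorvastatin and 13.2 to 25.2 FPKM in control. Hepatocyte genes summed to 19.2 to 20.4 FPKM under atorvastatin and 12 to 14.9 FPKM in control. Of these 8 genes, 2 were tested (Ttr and Cps1) and 2 positive. Ttr and Cps1 made up most of the sum, with means over the 6 libraries of 11 and 5.15 FPKM. Serpina1a, Fga, Fgb and Ahsg were listed at 0, and Alb stayed at or below 0.637 FPKM. Over all tested genes, 57.3% were positive, 0.155% were called higher and the groups did not overlap in 18.1%. No such background was computed for the summed levels. The mitochondrial ribosomal RNA mt-Rnr1, singled out after its values were seen, was at 1195, 1160.5 and 1526 FPKM under atorvastatin, against 2156, 2631 and 1828 FPKM in control. The part of these differences in the Cyp2c55 result was not tested. In bulk RNA, more cells of a type that carries Cyp2c55 and more Cyp2c55 RNA per cell cannot be told apart.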

How the data were processed

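The authors deposited 1 table of FPKM values per library, with 52550 Ensembl identifiers, of which 99.72% had a symbol. The unit was read from the values: totals were 407857 to 430832 and columns were not whole-numbered. FastQC 0.11.2, Bowtie (no version) and mm10 were used, per the submitters' processing notes. The quantifier, annotation, read length and handling of multiply mapping reads are not given in the sources used here. Depth is unknown, so values carry no counting interval.

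The 11644 genes that reached 1 FPKM in 3 or more of the 6 libraries were fitted on log2(FPKM + 1) with limma 3.58.1 in R 4.3.3 (trended, robust empirical Bayes, two-sided, Benjamini-Hochberg over all tested genes, threshold 0.05). The same fit was also run on simulated data with known differences, and no result here rests on that run. Differences on this scale understate changes of low genes. A total of 15 alternatives were run. The members and all lists were chosen with earlier results of these data known. The members were fitted with all other genes, but no test of them is used as evidence. Named genes were the members, other Cyp2c genes averaging 1 FPKM or more, the 3 most abundant genes and any called gene of each pathway list, the 3 tested genes nearest the cluster on each side, Nr1i2, Nr1i3 and the 5 most like Cyp2c55 by each measure. Other genes were chosen after their values were seen. The symbols Cyp2c44 and Prac1 had no match.

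Transcript comparisons used GENCODE M21 with Biopython 1.88 (global alignment, identity over aligned bases). Upstream windows came from RefSeq, where all 5 members matched. The motifs were chosen after the windows were seen.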

Additional observations from a re-analysis of the deposited data

How the results depend on the processing

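The count of called genes depended on the treatment of the data, and the cause was not tested. Against 18 genes higher and 29 lower, no filter on low values gave 2 higher and 0 lower, and a filter of 5 FPKM gave 19 lower. The fit with the replicate number as a block gave 1 higher and 0 lower. The labels' replicate numbers are not shown to pair libraries, since same-numbered libraries deviated from their group means with correlations of -0.14, -0.11 and 0.01. Leaving out each library in turn gave 2 to 25 higher and 0 to 52 lower. Without atorvastatin replicate 1 there were 6 higher and 7 lower, without atorvastatin replicate 2 there were 9 and 52, without atorvastatin replicate 3 there were 4 and 13, and without control replicate 1 there were 2 and 0. Without control replicate 2 there were 10 higher. The pathway lists had 0 called genes, and 0 to 2 with a library left out; the 2, Cyp2d26 and Cyp4f14, came without control replicate 3.

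The Cyp2c55 difference was positive under all 15 alternatives. Cyp2c55 was chosen as higher in these libraries and its groups do not overlap. Leaving out a library could therefore not change that sign, and nothing is read from it. For Cyp2c65 and Cyp2c68 0 of 15 were positive, and for Cyp2c66, which the filter of 5 FPKM removed, 3 of 14. The alternatives that kept all 6 libraries gave 1.24 to 1.27 for Cyp2c55 and -0.19 to -0.17 for Cyp2c65. The share difference of Cyp2c55 was 19.6 to 21.5 percentage points with a library left out. With 3 libraries a group and unknown depth, small differences of Cyp2c66 were not detectable.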
